A study of Rattus norvegicus with 22 samples.

Results

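The 10 genes that make, break down and sense prostaglandin E2 (PGE2) were compared between oral squamous cell carcinoma (OSCC) and adjacent phenotypically normal tongue tissue of the rat. A probe was taken when its gene name on the array was Ptgs1, Ptgs2, Ptges, Ptges2, Hpgd, Slco2a1, Ptger1, Ptger2, Ptger3 or Ptger4, which gave 12 of the 30367 probes and 10 of the 19167 gene symbols on the array. The brightest probe over the 22 arrays stood for each gene, and the dimmer probes of Ptgs1 and Ptger3 are given beside it. Tissue came from 11 male F344 rats, aged about 33 weeks, whose drinking water had held the carcinogen 4-NQO (20 ppm) over 10 weeks and that were sampled 23 to 26 weeks after exposure began. The groups were 11 OSCC and 11 normal samples, 1 of each per rat and paired by animal. The deposited titles carry the word untreated for all samples and give the normal pieces no treatment, whereas the deposited protocol and the study's methods describe tissue beside the lesions of these exposed rats. The normal tissue was therefore read here as tissue exposed to 4-NQO, and no unexposed tongue was compared. RNA was taken from whole pieces, so that fewer cells of a type and less RNA per cell cannot be told apart in any value given here.

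Expression was measured on one-color Agilent arrays. It is given as log2 signal relative to the 75th percentile of the array, so that 0 is that percentile and a difference of 1 is a 2-fold change. OSCC was compared with normal tissue within rats by limma, and a gene was called different at an adjusted p below 0.05 with a mean change of at least 2-fold. A probe was counted as measured on an array when the scanner software marked it well above background. The OSCC arrays of animals 4 and 9 were scanned together with all 11 normal arrays, and a second day served for the remaining 9 OSCC arrays. No slide held both tissues. The OSCC arrays were brighter, with a median 75th percentile of 587 against 382 on normal arrays. They measured 52.3% to 65.5% of probes, against 48.4% to 56.1% on normal arrays. Counts of arrays that measured a dim gene are therefore not on equal terms between the tissues. The median log2 difference of all probes was -0.24, and it ran from -0.44 to -0.03 under other scalings of the arrays. Over the 17002 probes measured on at least 11 arrays it was -0.04. The study named animals 21, 22 and 24 as variable, and on the arrays these OSCC pieces stood apart. The summed level of 9 skeletal muscle genes, in units of the 75th percentile, was 2654, 2433 and 2730 in the OSCC of animals 21, 22 and 24, against 89.7 to 1081 in the other 8 OSCC and 1394 to 2841 in normal tissue. Results of several genes are therefore also given without those 3 animals. Among the brightest probes, leaving them out moved only the call of Ptgs1, and Ptgs2, Ptger2 and Ptger4 stayed called.

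PGE2 is made from arachidonic acid, which the cyclooxygenases COX-1 (Ptgs1) and COX-2 (Ptgs2) turn into prostaglandin H2 and a PGE synthase then turns into PGE2. It is removed by uptake into cells through the prostaglandin transporter (Slco2a1) and oxidation by 15-hydroxyprostaglandin dehydrogenase (Hpgd), and it acts on the G protein-coupled receptors EP1 to EP4 (Ptger1 to Ptger4). COX-2 is an inducible enzyme of inflamed and neoplastic squamous epithelium, and loss of Hpgd has been described in several carcinomas.

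Of the 10 genes, limma called 3 higher in OSCC, namely Ptgs2, Ptger2 and Ptger4, and 0 lower. The same fit called 7.48% of the 19167 genes higher and 7.24% lower. All 3 were genes that 0 of 11 normal arrays measured. In OSCC the median log2 expression of Ptgs2 was -1.50, with a highest value of 1.05. Ptger2 and Ptger4 stayed dimmer there, with medians of -4.22 and -3.28. The 7 other genes were not called by their brightest probe, and at an unadjusted p below 0.05 with a 2-fold change the count of lower genes was also 0, as it was by the methods' paired test. Neither breakdown gene was called in either direction.

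**Figure D1:**
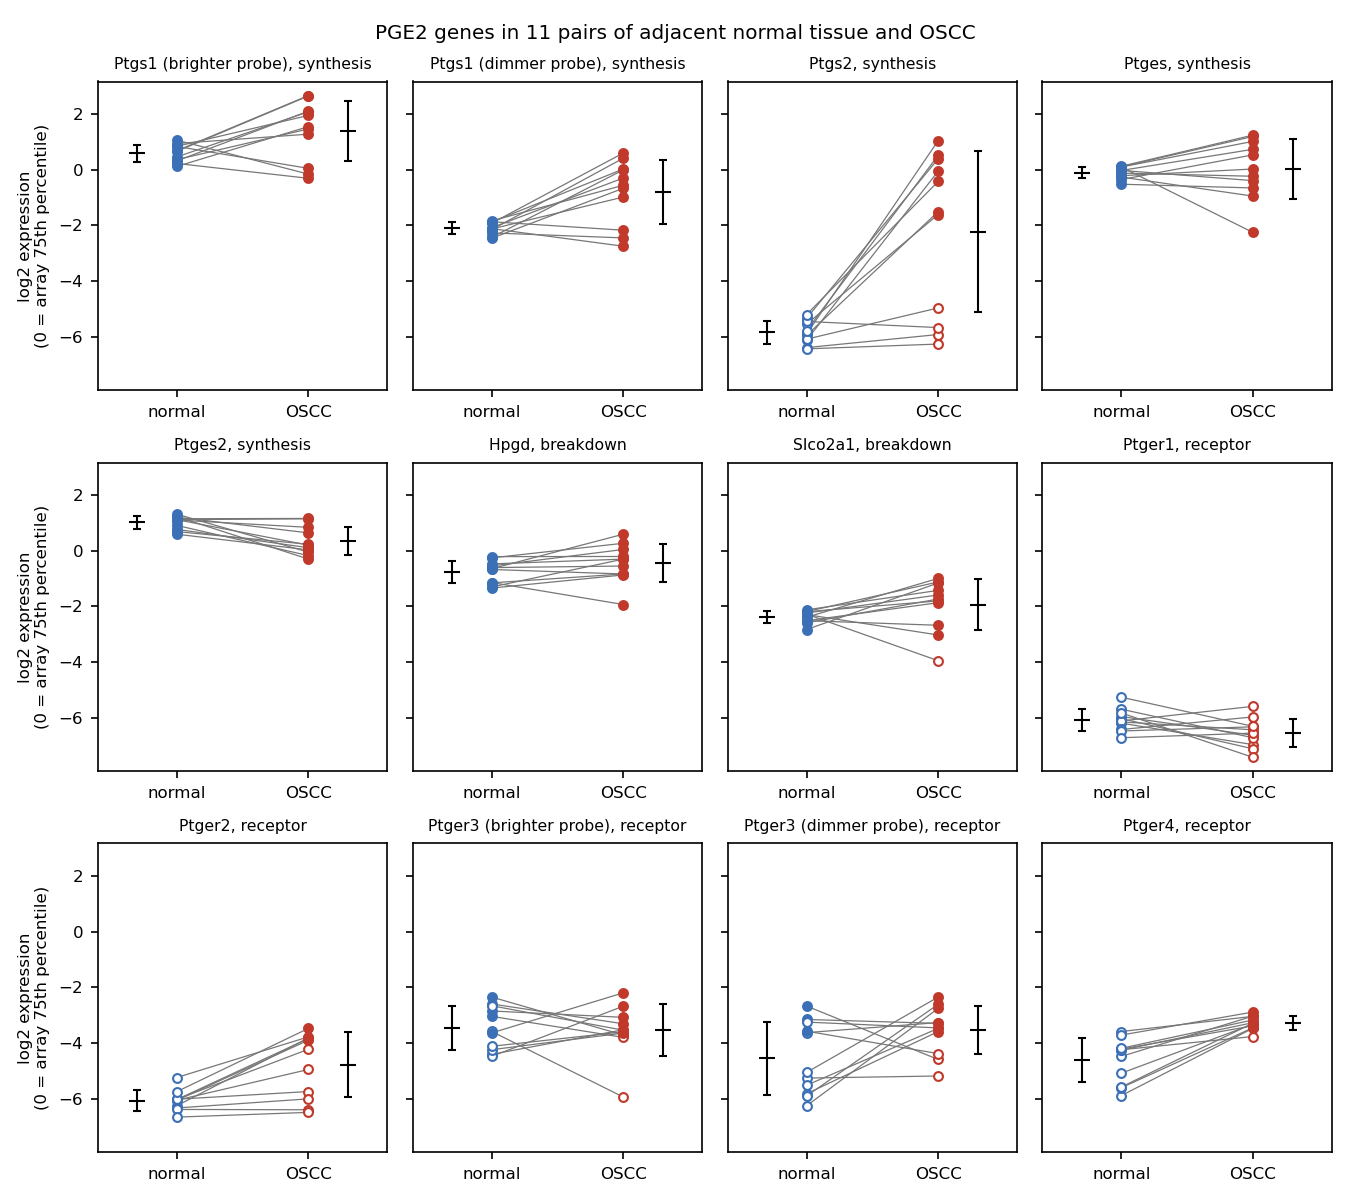
Log2 expression of the 12 probes of the 10 PGE2 genes (y axis, 0 is the 75th percentile of the array) in 11 normal (blue) and 11 OSCC (red) samples, with lines joining the tissues of a rat, filled points well above background, open points not, and black bars the mean and SD of a tissue. Ptgs2 ran from -6.44 to -5.20 in normal tissue and from -6.26 to 1.05 in OSCC, with 7 OSCC samples well above background.

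Ptgs2, the inducible cyclooxygenase, had the largest difference of the 10 genes. Its array oligo, shown because the Ptgs2 call rests on these 60 bases, lies at chr13:64432919-64432978 on the plus strand of rn4 and is coding sequence that ends at the stop codon, in capitals. Beside it stands the coding oligo of the dimmer Ptgs1 probe, at chr3:15350683-15350742 on the plus strand, and the pair share 14 of 60 bases when set base against base.
Ptgs2 oligo: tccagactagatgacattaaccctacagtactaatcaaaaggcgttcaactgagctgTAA
Ptgs1 oligo: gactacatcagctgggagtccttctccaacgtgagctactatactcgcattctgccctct

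Log2 expression of Ptgs2 in normal tissue was -6.44 at the lowest, -5.90 at the median and -5.20 at the highest. In OSCC it was -6.26 at the lowest, -1.50 at the median and 1.05 at the highest. In 8 of 11 OSCC samples it lay above every normal sample, and the tissues overlapped in the OSCC of animals 21, 22 and 24. Within rats the difference was 6.95 in animal 11, 6.30 in animal 25, 6.08 in animal 4, 5.73 in animal 13, 4.79 in animal 26, 4.45 in animal 9 and 3.94 in animal 16. It was 1.12 in animal 17, 0.47 in animal 21, 0.17 in animal 22 and -0.22 in animal 24. The 7 pairs with differences of 3.94 or more were those whose OSCC was well above background, and no pair fell between 1.12 and 3.94. The means were -5.84 ± 0.41 (SD, n = 11) in normal tissue and -2.22 ± 2.89 in OSCC, and limma gave an adjusted p of 0.00280. Because no normal array measured Ptgs2, its rise is a bound of at least 3.20-fold, set against the lowest signal well above background on each normal array. That bound holds only for the background treatment of the deposited signals. With normexp background correction the difference was 1.53 log2 units, a rise under that bound, and was still called, with an adjusted p of 0.00668. Without animals 21, 22 and 24 it was 4.92.

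The study examined methylation in the Ptgs2 proximal promoter, in tissue pairs of another experiment and not in the rats of these arrays. The difference it reported lay outside the CpG island of the promoter, in a region that the window shown here covers only in part. The 250 bases before the annotated start of Ptgs2 are therefore shown with those of Ptges and Hpgd, the terminal synthase and the main catabolic enzyme. The sequences are RefSeq's for assembly GRCr8, and 9 of the 10 genes, all but Ptges2, matched an entry. They lie at chr13:64713813-64714062 (plus strand), chr3:34586988-34587237 (minus) and chr16:39034832-39035081 (minus). Capitals mark matches on either strand to 7 motifs, namely the E-box CACGTG, the C/EBP motif TTNNGNAA, the Sp1 motif GGGCGG, the TATA box TATAAA, the AP-1 motif TGANTCA, the core TGACGT of the cAMP response element (CRE) and the NF-kB consensus, with no overlaps among the matches shown.
Ptgs2 promoter: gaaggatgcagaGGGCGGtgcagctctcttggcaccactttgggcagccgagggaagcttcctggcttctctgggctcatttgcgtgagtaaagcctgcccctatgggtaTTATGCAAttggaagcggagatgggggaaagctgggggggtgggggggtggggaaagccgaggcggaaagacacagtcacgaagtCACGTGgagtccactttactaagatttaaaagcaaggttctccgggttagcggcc
Ptges promoter: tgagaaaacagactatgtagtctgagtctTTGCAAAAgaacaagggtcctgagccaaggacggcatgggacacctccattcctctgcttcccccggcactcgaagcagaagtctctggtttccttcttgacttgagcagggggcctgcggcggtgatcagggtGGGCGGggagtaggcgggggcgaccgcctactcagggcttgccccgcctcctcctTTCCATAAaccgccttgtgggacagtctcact
Hpgd promoter: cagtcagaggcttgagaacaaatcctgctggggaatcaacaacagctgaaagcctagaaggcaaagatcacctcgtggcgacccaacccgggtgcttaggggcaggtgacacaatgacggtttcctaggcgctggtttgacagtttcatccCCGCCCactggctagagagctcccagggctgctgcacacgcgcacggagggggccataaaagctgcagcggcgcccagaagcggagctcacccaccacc

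The Ptgs2 window held an E-box whose first base is 55 bases before the start, a C/EBP match at 140 and an Sp1 match at 238. The Ptges window held C/EBP matches at 221 and 32 and an Sp1 match at 87, and the Hpgd window an Sp1 match at 99. The windows held 10 CpG dinucleotides in Ptgs2, 11 in Ptges and 12 in Hpgd. Of the 33469 promoter windows of the same length, 5.59% held the E-box, 37.2% the C/EBP letters and 30.5% the Sp1 letters. The E-box was found in the window of 1 of the 9 genes, C/EBP in 2 and Sp1 in 6. The TATA box was found only in the window of Slco2a1 among the 9, against 12.9% of all windows. The AP-1, CRE and NF-kB motifs were found in 0 of 9, against 6.34%, 6.95% and 3.54% of all windows. These matches describe letters in a window and were not tested for binding or for methylation on these arrays.

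Ptgs1, the constitutive cyclooxygenase, was measured on all 22 arrays by both probes. By the brighter probe its log2 expression in normal tissue was 0.12, 0.67 and 1.07 at the lowest, median and highest. In OSCC the corresponding values were -0.31, 1.55 and 2.67. The OSCC samples lay on both sides of the normal range, with 8 above every normal sample and 3 below. The mean difference was 0.80 ± 0.32 (SE, 11 pairs), higher in 8 of 11 pairs, and it was not called, with an adjusted p of 0.0592. The dimmer probe, at chr3:15350683-15350742, rose from -2.10 ± 0.22 (SD, n = 11) to -0.80 ± 1.16, a change of 1.30 ± 0.32 (SE) or 2.46-fold with an adjusted p of 0.00852. That call was lost with normexp background correction, at 0.88. It was also lost with scan day as a term, with an adjusted p of 0.123. The difference in that fit, 1.79, rests on the pairs of animals 4 and 9 alone. Both probes were higher in the same 8 pairs, and both had their lowest pair in animal 24. The brighter probe was called, at 1.00, when animal 24 was left out, and at 1.31 without animals 21, 22 and 24, so that call depends on those animals.

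Ptges, the inducible membrane-bound PGE synthase that is often coupled to COX-2, was measured on all 22 arrays. Its log2 expression was -0.52, -0.02 and 0.13 at the lowest, median and highest in normal tissue. The OSCC values were -2.25, 0.03 and 1.25. The spread was wider in OSCC than in normal tissue, with SDs of 1.07 and 0.22, and 5 OSCC samples lay above every normal sample while 3 lay below. The mean difference was 0.12 ± 0.29 (SE, 11 pairs; 95% confidence interval -0.50 to 0.75), higher in 6 pairs and lower in 5, with an adjusted p of 0.732. It ran from -2.35 in animal 24 to 1.12 in animal 13. Without animals 21, 22 and 24 it was 0.60 with an adjusted p of 0.0159, below the 2-fold limit, and with arrays scaled to their median it was -0.08.

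Ptges2, another membrane-associated PGE synthase, was measured on all 22 arrays and went the other way. Its log2 expression was 0.60, 1.12 and 1.32 at the lowest, median and highest in normal tissue. Those of OSCC were -0.30, 0.20 and 1.16. In 7 of 11 OSCC samples it lay below every normal sample, and 0 lay above the highest. The mean difference was -0.67 ± 0.16 (SE, 11 pairs), lower in 9 of 11 pairs, with an adjusted p of 0.00652. Normal tissue was thus 1.59-fold above OSCC, which did not reach the 2-fold limit for a call.

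**Figure D2:**
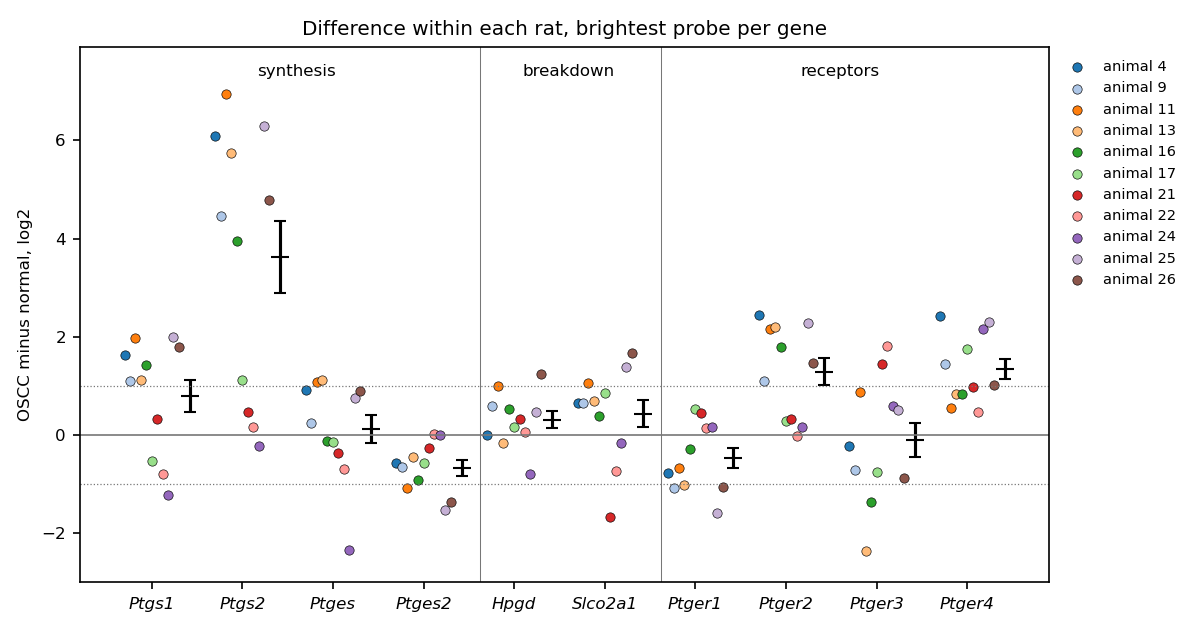
OSCC minus normal log2 difference (y axis) of the brightest probe of each of the 10 genes (x axis) in each of 11 rats (colored points), with black bars for the mean and its SE and dotted lines at a 2-fold change. Ptgs2 differences fell at -0.22 to 1.12 in 4 rats and at 3.94 to 6.95 in 7 rats, and Ptger4 was above 0 in all 11.

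Hpgd, the enzyme that starts the inactivation of PGE2, was measured on all 22 arrays and was not lower in OSCC. Its probe lies at chr16:37420061-37420120 on the minus strand of rn4. Log2 expression was -1.34, -0.64 and -0.21 at the lowest, median and highest in normal tissue. In OSCC it was -1.93, -0.30 and 0.60. In 4 OSCC samples it lay above every normal sample and in 1, of animal 24, below. The mean difference was 0.31 ± 0.17 (SE, 11 pairs; 95% confidence interval -0.05 to 0.68), higher in 9 of 11 pairs, with an adjusted p of 0.142. The lower end of that interval leaves out a mean fall of 2-fold. The 2 lower pairs were those of animal 24, at -0.79, and animal 13, at -0.16. Without animals 21, 22 and 24 the difference was 0.48, with an adjusted p of 0.0305 and still under 2-fold.

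Slco2a1, the transporter that takes PGE2 into cells for oxidation, was well above background on all 11 normal arrays and 10 of 11 OSCC arrays. Its log2 expression was -2.83, -2.29 and -2.12 at the lowest, median and highest in normal tissue. OSCC samples had -3.95, -1.73 and -0.99. In 8 OSCC samples it lay above every normal sample. The mean difference was 0.44 ± 0.27 (SE, 11 pairs; 95% confidence interval -0.15 to 1.03), higher in 8 of 11 pairs, with an adjusted p of 0.194. The 3 lower pairs were exactly those of animals 21, 22 and 24, at -1.67, -0.73 and -0.16. Without them the difference was 0.92 with an adjusted p of 0.00116, under the 2-fold limit.

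Synthesis was then set against breakdown pair by pair. A pattern of more synthesis with less breakdown, with Ptgs2 and Ptges higher and Hpgd lower, was seen in 1 of 11 pairs, that of animal 13. Ptgs2 and Ptges were both higher in 6 pairs. Hpgd and Slco2a1 were both lower in 1 pair, that of animal 24. The pattern of Ptgs2 and Ptges higher with both breakdown genes lower was seen in 0 pairs. Ptgs2 was measured in the OSCC of 7 pairs, those of animals 4, 9, 11, 13, 16, 25 and 26, and in no normal sample. In these 7 its difference exceeded that of Hpgd by 3.42 to 6.08 log2 units and that of Slco2a1 by 3.11 to 5.89. The 7 pairs were picked by their Ptgs2 signal in OSCC, so this order is no separate result. The size of the gap rests on normal values of Ptgs2 that were not measured. For the 3 synthesis genes measured in all 11 pairs, the Ptgs1 difference exceeded that of Hpgd in 8 pairs, the Ptges difference in 4 and the Ptges2 difference in 1. Against Slco2a1 the counts were 8, 5 and 3 of 11 pairs. The synthesis genes were not tested against each other.

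**Figure D3:**
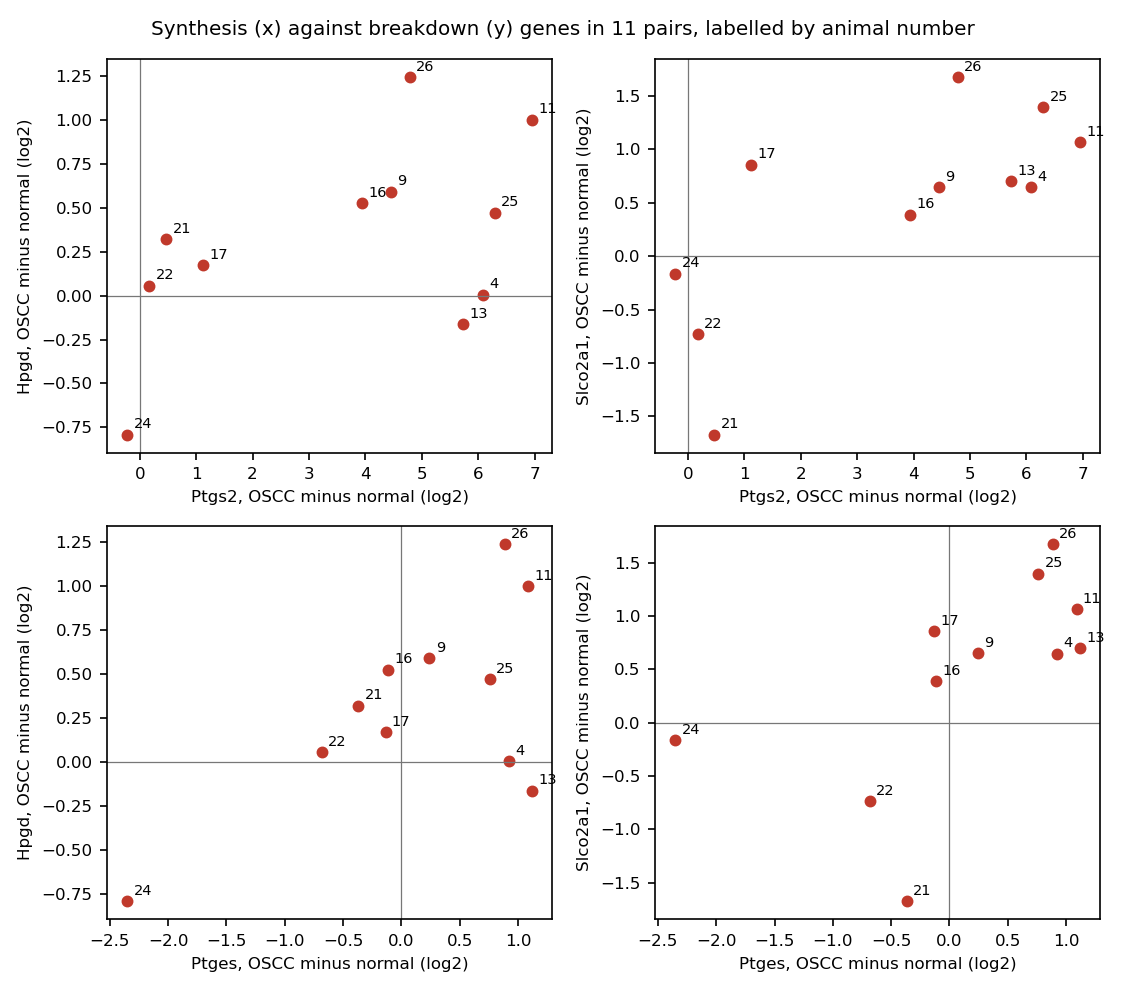
OSCC minus normal log2 difference of Ptgs2 or Ptges (x axes) against that of Hpgd or Slco2a1 (y axes) in 11 pairs, numbered by animal. The pairs of animals 17, 21, 22 and 24 lie left of a gap in Ptgs2 between 1.12 and 3.94, and few pairs lie in the lower right quadrant, where synthesis would be higher and breakdown lower.

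The relations among Ptgs2, Ptges, Hpgd and Slco2a1 were computed as 6 correlations of the within-rat differences. The pairs fell into separate clusters in Ptgs2, Ptges and Hpgd, with a widest gap of 39.3%, 48.0% and 31.0% of the range, so no r was pooled over 11 pairs. Within the larger cluster, of 7 pairs for Ptgs2 and 10 pairs (without animal 24) for the others, 0 of 6 relations passed an adjusted p of 0.05. Ptgs2 with Ptges had a Pearson r of 0.81 (exact permutation p = 0.0222, adjusted p = 0.0667; Spearman rho 0.64, exact p = 0.139, adjusted p = 0.383; 7 pairs). It was 0.22 without the 2 pairs farthest from the median of Ptgs2, so it rested on those pairs. Ptges with Slco2a1 had an r of 0.73 (permutation p = 0.00891, adjusted p = 0.0535; rho 0.58, permutation p = 0.0900, adjusted p = 0.383; 10 pairs) and 0.44 without 2 pairs. Ptgs2 with Hpgd had an r of -0.12 (exact permutation p = 0.778, adjusted p = 0.778; rho -0.11, exact p = 0.840, adjusted p = 0.919; 7 pairs). The other 3 relations had r between 0.27 and 0.44 and adjusted p between 0.403 and 0.567. Single animals moved these values, with Ptgs2 and Slco2a1 at -0.0031 without animal 16 and 0.74 without animal 26, and Ptges and Hpgd at -0.28 without animal 11 and 0.55 without animal 13. In the 9 pairs whose tissues were scanned on different days, Ptges with Slco2a1 had an r of 0.75 over 8 pairs (exact permutation p = 0.0215, adjusted p = 0.0646), the relations of Ptgs2 had too few pairs, and the 2 pairs scanned within 1 day gave no correlation. All differences of a pair share the scaling of its 2 arrays, and those of Ptgs2 subtract normal values that no array measured.

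Among the receptors, Ptger4 (EP4), which raises cAMP through a stimulatory G protein, was higher in OSCC in all 11 pairs. Its log2 expression was -5.89, -4.25 and -3.58 at the lowest, median and highest in normal tissue. In OSCC it was -3.76, -3.28 and -2.88. In 10 of 11 OSCC samples it lay above every normal sample, with animal 22 the exception, and 8 OSCC arrays but 0 normal arrays measured it. The means were -4.62 ± 0.79 (SD, n = 11) and -3.28 ± 0.24, with an adjusted p of 0.000670. With normexp background correction the difference was -0.03 with an adjusted p of 1.00, so the direction of Ptger4 depends on how background is treated and no fold is given.

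Ptger2 (EP2), the other receptor that raises cAMP, was also called higher, from a lower signal. Its log2 expression was -6.66, -6.05 and -5.24 at the lowest, median and highest in normal tissue. The OSCC samples were at -6.49, -4.22 and -3.47. In 7 of 11 OSCC samples it lay above every normal sample, and 5 OSCC arrays but 0 normal arrays measured it. The means were -6.07 ± 0.37 (SD, n = 11) and -4.78 ± 1.17, higher in 10 of 11 pairs with an adjusted p of 0.00315, and no fold is given because the OSCC mean lay under the normal background limit. With normexp background correction the adjusted p was 0.711. The 5 OSCC samples that measured Ptger2, of animals 4, 11, 13, 25 and 26, all measured Ptgs2 as well.

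Ptger3 (EP3), which lowers cAMP, was not called by either probe, and its probes disagreed in sign and size. By the brighter probe its log2 expression was -4.48, -3.58 and -2.35 at the lowest, median and highest in normal tissue and -5.94, -3.54 and -2.19 in OSCC, and it was measured on 5 normal and 9 OSCC arrays. The mean difference was -0.10 ± 0.35 (SE, 11 pairs; 95% confidence interval -0.85 to 0.66) with an adjusted p of 0.831. The dimmer probe differed by 1.01 ± 0.49 (SE) with an adjusted p of 0.107, and it was called without animal 16, at 1.31 with an adjusted p of 0.0461. It was higher by 2.71, 3.50 and 3.30 in animals 21, 22 and 24, and without them the difference was 0.21. Ptger1 (EP1), which acts through calcium, was measured on 0 of 22 arrays, so nothing was read from its values.

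The scan day could be set aside only in the pairs of animals 4 and 9. In them Ptgs2 differed by 6.08 and 4.45, Ptger4 by 2.42 and 1.45 and Ptger2 by 2.44 and 1.11, all in the direction of the call. No normal array measured these genes, so their values in this paragraph are no fold changes. The direction of Ptger4 also depends on how background is treated. Hpgd differed by 0.01 and 0.59 and Slco2a1 by 0.65 and 0.65 in the same pairs. With scan day as a term limma called 0 of the 10 genes and 3 of all probes, against 3 genes and 9578 probes at an unadjusted p below 0.05 with a 2-fold change. The tissue differences of that fit rest on the pairs of animals 4 and 9 alone, since tissue and scan day changed together in the other pairs. They are the means of those 2 pairs, at 5.27 for Ptgs2, 1.93 for Ptger4 and 1.77 for Ptger2, and so are no separate result. The limma adjusted p were 0.0855, 0.0855 and 0.0867. In the 9 pairs scanned on different days the same 3 genes were called, with Ptgs2 at 3.25, Ptger4 at 1.21 and Ptger2 at 1.18. The part of slide in these results cannot be told apart from tissue.

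**Figure D4:**
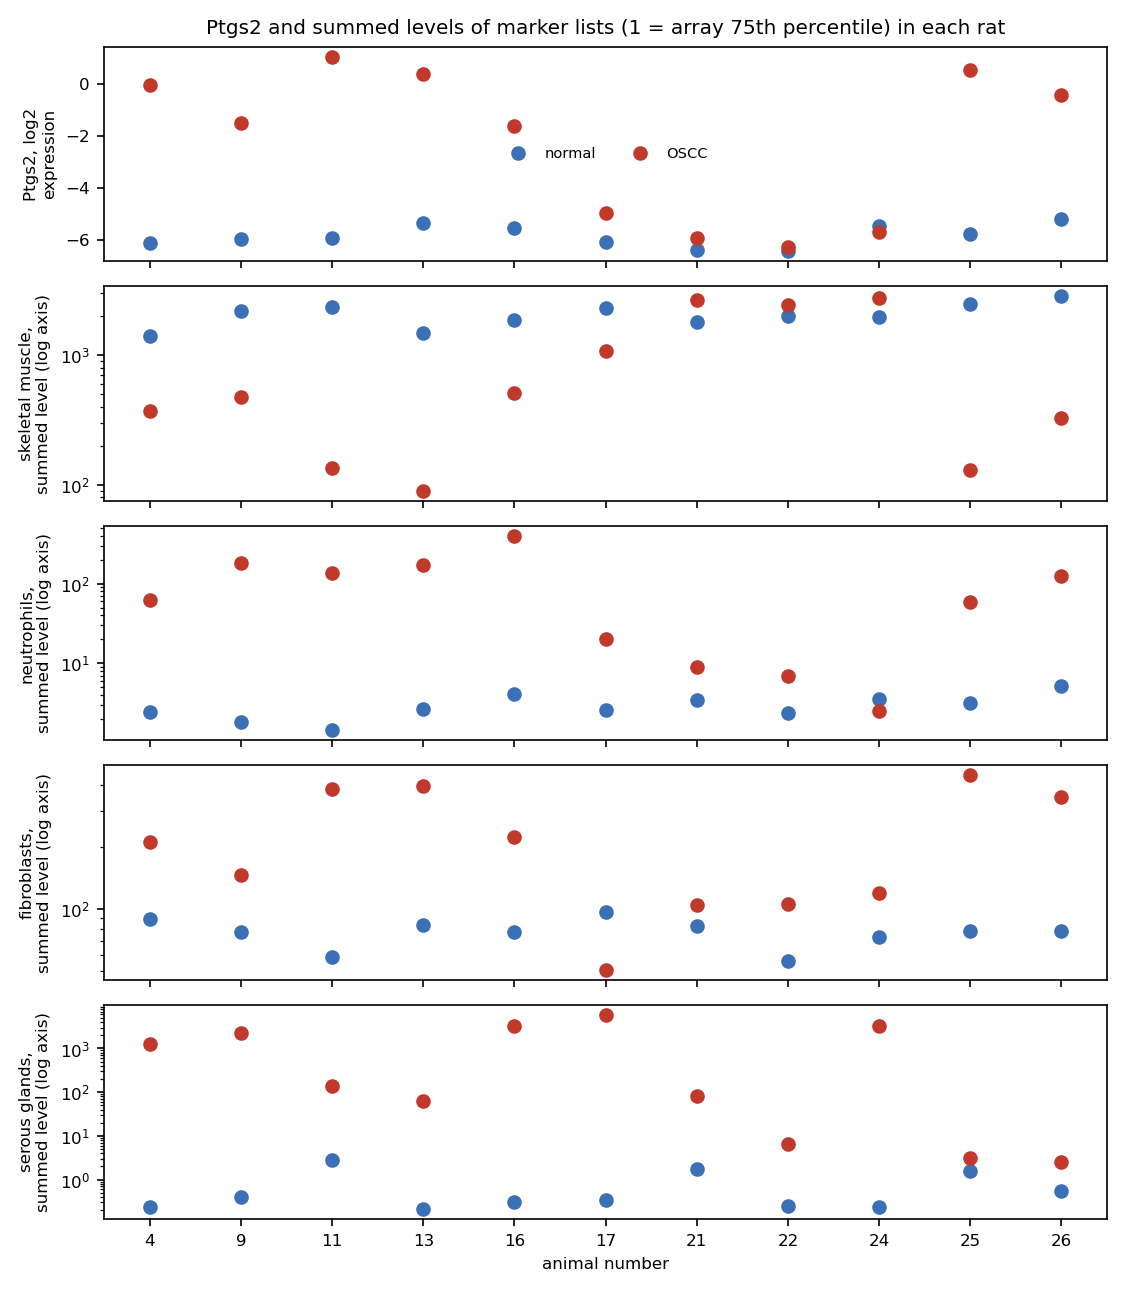
Log2 expression of Ptgs2 (top, y axis) and the summed level of 4 marker lists (lower panels, log axes, 1 is the 75th percentile of the array) in normal (blue) and OSCC (red) tissue of each animal (x axis). In the OSCC of animals 21, 22 and 24 the skeletal muscle sum was 2433 to 2730, within the normal range, and the neutrophil sum was 2.53 to 8.91. The neutrophil sum of the OSCC of animal 25 lacks S100a8.

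Markers of other cells also differed between the tissues, and only some of them followed Ptgs2 by animal, as the plot of marker sums shows. Of all genes 7.48% were called higher and 7.24% lower. Of 8 neutrophil genes, 6 were called higher in OSCC, and their summed level was 1.44 to 5.21 in normal tissue and 2.53 to 399 in OSCC. The OSCC sums were 20.1, 8.91, 6.83 and 2.53 in animals 17, 21, 22 and 24 and 58.2 or more in the other 7. S100a9 and S100a8 made up most of the OSCC sums, with medians of 58.8% and 33.9%, and S100a8 had no value in the OSCC of animal 25. The other 6 genes summed to 0.83 to 1.48 in normal tissue, 0.84 to 1.59 in the OSCC of animals 17, 21, 22 and 24, and 3.87 to 9.17 in the other 7 OSCC. Of 9 macrophage genes 6 were higher, with sums of 14.1 to 31.8 and 21.4 to 66.3, and of 8 fibroblast genes 6 were higher, with sums of 55.8 to 96.6 and 50.6 to 447. The fibroblast sums also split by animal, at 50.6 to 120 in the OSCC of animals 17, 21, 22 and 24 and 146 to 447 in the other 7. The macrophage sums overlapped between these OSCC sets, at 21.4 to 41.1 and 40.6 to 66.3. Of 9 skeletal muscle genes 6 were lower and 1 higher, with sums of 1394 to 2841 and 89.7 to 2730, and of 4 smooth muscle genes 2 were lower, with sums of 54.2 to 96.4 and 13.7 to 93.9. In the OSCC of animals 17, 21, 22 and 24 the skeletal muscle sums were 1081 to 2730, against 89.7 to 510 in the other 7. The smooth muscle sums split likewise, at 41.6 to 93.9 and 13.7 to 30.6. Des, which skeletal muscle expresses too, made up a median of 88.9% and 72.8% of those smooth muscle sums, so they are no measure of smooth muscle alone. All 7 serous gland genes were higher, with sums of 0.21 to 2.86 and 2.54 to 5935. These sums did not follow Ptgs2, at 6.54 to 5935 in the OSCC of animals 17, 21, 22 and 24 and 2.54 to 3233 in the other 7. Of 9 stratified epithelium genes 1 was lower, with sums of 523 to 1075 and 261 to 1083, so keratinocyte RNA was present in both tissues. The lowest sum was in the OSCC of animal 24, the lowest pair for Krt14 (-4.33), Krt5 (-3.53), Tp63 (-3.04), Dsp and Perp. Krt13, Krt4, Krt15 and Ivl had their lowest pair in other animals. Animal 24 was also the lowest pair for Ptgs1, Ptgs2, Ptges and Hpgd. Of 7 endothelial genes 0 were called, with sums of 9.96 to 14.6 and 4.15 to 14.0. The part of these cells in the results of Ptgs2 and the other PGE2 genes was not tested.

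Other genes of the pathway were less uniform. Of 7 genes for further steps of PGE2 synthesis, export and breakdown, 1 was called higher and 1 lower, against 7.48% and 7.24% of all genes. Their median log2 difference was -0.04 against -0.24 for all probes. Pla2g4a, the cytosolic phospholipase A2 that frees arachidonic acid, rose by 1.03 ± 0.20 (SE, 11 pairs; adjusted p = 0.00202). Ptgr2, a reductase that acts after Hpgd on the oxidized prostaglandin, fell by 1.09 ± 0.23 (adjusted p = 0.00364). A further such reductase, Zadh2, was lower by a log2 difference of -0.75 with an adjusted p of 0.00427, under the 2-fold limit. Ptges3, Abcc4, Cbr1 and Ptgr1 were not called, with log2 differences between -0.57 and 0.65. The PGE2 exporter Abcc4 was at -0.04 ± 0.34.

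Of 14 genes that induce Ptgs2 or act on its mRNA, 7 were called higher in OSCC and 0 lower, against 7.48% and 7.24% of all genes. This list too was chosen with earlier results of these data known, so the counts only describe it. Their median log2 difference was 0.97, against -0.24 for all probes and -0.04 for probes measured on at least 11 arrays. Without animals 21, 22 and 24 the count of higher genes was 8, with normexp background correction it was 3, and with scan day as a term it was 0. The interleukin-1 genes led the list, and the study itself had picked Il1a, Il1b and Tnf as COX-2 regulators on these arrays, so their direction is no independent evidence. Il1b rose by 4.17 ± 0.73 (SE, 11 pairs; adjusted p = 0.00131), from a median of -2.94 to 2.80, Il1a by 3.07 ± 0.59 and Tnf by 2.11 ± 0.52. The EGF receptor ligands Hbegf and Tgfa rose by 2.16 ± 0.33 and 1.34 ± 0.24, each in all 11 pairs. Il1r1 and Il6 were called from signals that no normal array measured, so no fold is given. The transcription factor genes Nfkb1, Cebpb and Cebpd had adjusted p below 0.05 and differences of 0.75, 0.38 and 0.85, under 2-fold, as did the EGF receptor gene Egfr at 0.44. Rela was at 0.05, and the mRNA-binding protein genes Elavl1, which stabilizes, and Zfp36, which destabilizes such transcripts, were at 0.16 and 0.37 and were not called.

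The 12 cAMP-responsive genes lie downstream of receptors such as EP2 and EP4 among many others. Of these 12, 4 were called higher and 1 lower, against 7.48% and 7.24% of all genes. The list was chosen with earlier results of these data known, so the counts are a description and no test of receptor signalling. Their median log2 difference was 0.89, against -0.24 for all probes and -0.04 for probes measured on at least 11 arrays. Pde4b, a cAMP phosphodiesterase, was at -3.25, -2.90 and -2.18 at the lowest, median and highest in normal tissue and at -1.49, -1.01 and -0.58 in OSCC. The tissues did not overlap, as in 0.694% of all genes, and it rose by 1.80 ± 0.16 (SE). Areg and Ereg, ligands of the EGF receptor, rose by 3.97 ± 0.82 and 1.40 ± 0.48, and the nuclear receptor gene Nr4a3 by 2.01 ± 0.37, in 10, 9 and 11 of 11 pairs. Per1, a clock gene, fell by 1.07 ± 0.22. Crem, Nr4a2, Pde4d and Dusp1 had adjusted p below 0.05 with differences of 0.96, 0.92, 0.87 and 0.49. Nr4a1 and Sik1 were not called, and 0 of 22 arrays measured Fosb. The count of higher genes ran from 3 to 6 under other scalings and was 0 with scan day as a term.

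The genes whose 11 within-rat differences were most like those of Ptgs2, among 11659 genes measured on at least 11 arrays, were Rfc2 (Pearson r = 0.98), Marcksl1 and Rad51ap1 (0.97), and Lama3 and RGD1565672 (0.97). None of the 5 was called between the tissues, with mean log2 differences from 0.08 to 0.87. Those most like Hpgd were Fchsd1 (0.94), Dlgap4 (0.93), Lrrc8e and Pgap2 (0.91) and Zbtb7a (0.90), and none was called. Each r covers 11 pairs, or 10 for Zbtb7a, for which 1 array was missing, and is given as a description. A gap split the pairs in Ptgs2, and in Hpgd it set apart only the pair of animal 24.

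**Figure D5:**
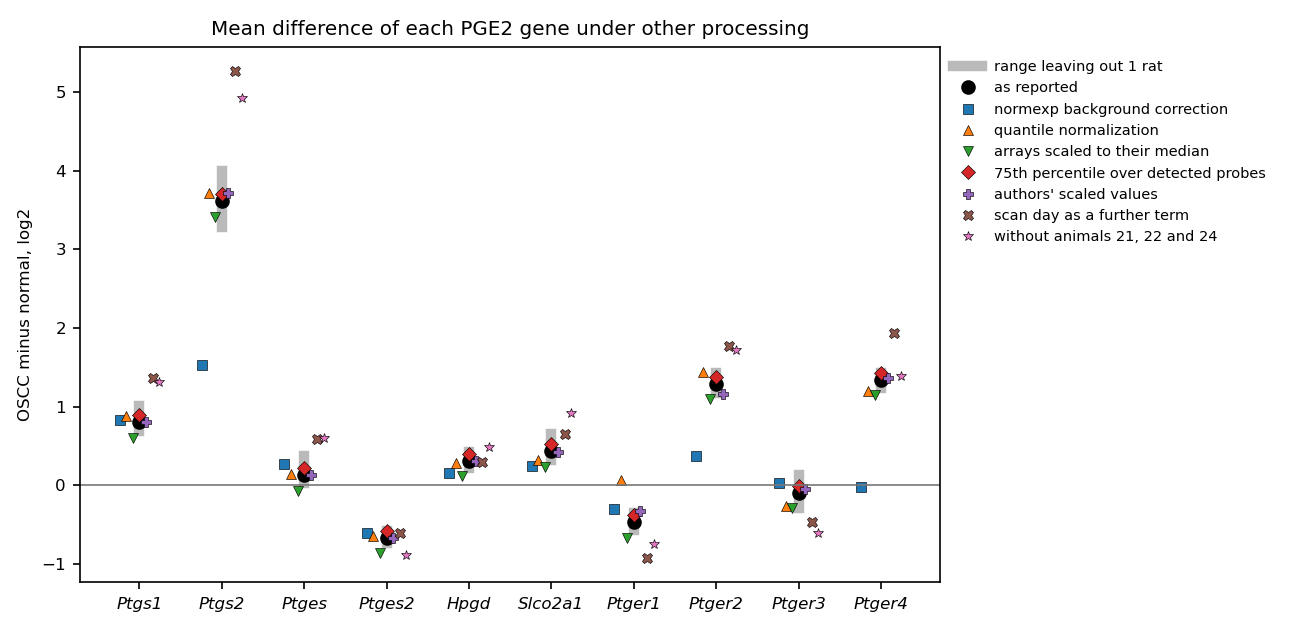
Mean OSCC minus normal log2 difference (y axis) of each of the 10 genes (x axis) as reported (black), under 7 other treatments of the data (colored symbols), and over all fits that leave out 1 rat (grey bars). Ptgs2 stayed between 1.53 and 5.27, while Ptger4 was at -0.03 with normexp background correction and between 1.14 and 1.93 in the other 6. The values with scan day as a term rest on the pairs of animals 4 and 9.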

How the data were processed

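RNA of 11 OSCC and 11 adjacent normal pieces was hybridized by the authors to one-color Agilent rat arrays with 30367 probes, and the intensities were extracted with Feature Extraction 9.5.3.1, per the file headers. The processed intensity of each spot, which that software had already background-subtracted and detrended, was used as deposited. The authors also deposited scaled values, which are the ratio of the processed intensity to the 75th percentile of the array (99.98% of those of 0.5 or more were equal within 2%), and these served as an alternative. Control spots and 9196 outlier spots (0.975%) were left out, which left 68 probes without a value on at least 1 array, spots of a probe were averaged, and log2 values were centred on the 75th percentile of the array, with no filter on dim probes. Where genes have several probes, the brightest stood for the gene.

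The paired comparison, with rat as a term because both pieces came from 1 animal, used limma 3.58.1 (R 4.3.3), and p-values were adjusted by Benjamini-Hochberg over all probes. The deviations of a rat's pieces from the means of their groups correlated at -0.21 to 0.24 (median -0.02), so the pairing comes from the design. The precision is limited by the number of arrays. Relations between genes were Pearson and Spearman correlations of the within-rat differences with two-sided permutation tests, exact below 10 pairs and with 100000 resamples otherwise, within the larger cluster where the widest gap passed 30% of the range. The rise of Ptgs2, which no normal array measured, was given as "at least" against the lowest signal well above background of each normal array.

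Named were the 10 genes with both Ptgs1 probes, genes of 3 pathway lists, marker genes of 8 cell types, and the 5 genes with the within-rat differences most like those of Ptgs2 and of Hpgd. The members and lists were chosen with earlier results of these data known. Other background correction, scalings, tests, filters and sets of animals were tried as alternatives. Coordinates of probes are on rn4 as the files give them, and accessions of 17328 probes matched a current RefSeq symbol. The fit was checked on simulated data. The normal tissue came from exposed rats, so unexposed tongue was not analysed here.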

Additional observations from a re-analysis of the deposited data

How the results depend on the processing

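Of the counts of called probes, of called PGE2 genes and of relations, 83 values under an alternative stayed within 1.5 times the reported count and 11 did not. With normexp background correction limma called 1701 probes, 1 PGE2 gene higher (Ptgs2) and 2 relations (Ptgs2 with Ptges and with Slco2a1), over 10 and 11 pairs in place of 7 because the gap in Ptgs2 was then under 30% of the range, and the Spearman adjusted p of Ptgs2 with Ptges was 0.147. With scan day as a term it called 3 probes and 0 PGE2 genes. Without animals 21, 22 and 24 it called 6924 probes and 4 PGE2 genes higher, Ptgs1 among them. With only probes measured on at least 11 arrays 0 PGE2 genes were higher, because Ptgs2, Ptger2 and Ptger4 were then not tested. With no fold cutoff 13376 probes passed and 1 PGE2 gene was lower, Ptges2. With the 75th percentile taken over probes measured on all arrays 1 relation passed (Ptges with Slco2a1). Leaving out 1 animal in turn gave 0 to 1 relations, with 1 (Ptges with Slco2a1) without animal 17. The relations in the 9 pairs scanned on different days were added after seeing the data and numbered 0.

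Log2 differences changed sign for Ptges with arrays scaled to their median (-0.076), for Ptger1 with quantile normalization (0.063, of no meaning since no array measured it), for Ptger3 with normexp (0.028), for Ptger4 with normexp (-0.029) and for Ptger3 by its other probe (1.01). Leaving out 1 animal moved Ptger3 from -0.29 to 0.13, above 0 without animal 13 or 16. The causes were not tested. For single genes 280 other values kept their direction and their side of the threshold, 5 gained a call and 6 lost one. The share of higher calls was 49.6%, against 32.8% with arrays scaled to their median, 40.3% with normexp and 57.3% with the 75th percentile over probes measured on all arrays.

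Without the replicate block of rat, 4227 probes and 3 PGE2 genes higher and 0 lower were called, against 4201, 3 and 0 with the pairing, and no call of a PGE2 gene changed. The low signals of Ptgs2 in normal tissue, and of Ptger2, Ptger4 and Ptger1 in both tissues, limit what can be said of their fold changes.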
